A study of Mus musculus with 6 samples.

Results

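Prg2, Prg3, Epx, Il5ra, Alox15 and Ccr3, 6 genes whose products mark the eosinophil granulocyte, were followed in long-term hematopoietic stem cells (LT-HSCs) with and without latexin. Each was read from the probe set carrying its symbol, and since each had only 1 such probe set, no choice among probe sets was needed. The 6 genes were among 19938 genes with a probe set of exactly 1 symbol. They had been chosen by their signals in this same comparison of Lxn-/- with WT pools, so their values are a description of the pools and are given without a test.

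The Lxn-/- mice carried a deletion of exons 2 to 4 of latexin (Lxn), an inhibitor of metallocarboxypeptidases, and had no latexin protein, and the WT mice had an intact gene and protein. All mice were C57BL/6 females aged 8 to 12 weeks. Marrow cells were sorted as lineage negative, Sca1 positive, c-Kit positive and negative for CD34 and Flt2 (the marker's name in the labels), and there were 3 pools of Lxn-/- cells and 3 pools of WT cells. Each pool held nearly 100000 cells from 10 to 20 mice and was hybridised to 1 Affymetrix mouse Gene ST array, so an array averages over many animals and over every cell type that passed the gate. The question of the series is which genes differ in LT-HSCs when latexin is deleted.

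Eosinophils are granulocytes of the marrow, blood and mucosal tissues, known for defence against helminths and for their part in allergic inflammation. In the marrow they arise from granulocyte progenitors under the factors GATA1 and C/EBP, and interleukin 5 drives their expansion and survival. Their progenitors fill large granules with cationic proteins, and mature cells leave for the tissues in response to eotaxin chemokines.

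Signals are log2 values after robust multi-array average (RMA) normalization by the authors. Lxn itself had 8.66, 8.78 and 8.78 in the Lxn-/- pools, against 8.99, 9.09 and 9.55 in the WT pools, a difference of -0.47 (SE 0.14, limma adjusted p = 0.993), without overlap. Where its probes lie relative to the deleted exons is not known here, so a signal that stays above background in Lxn-/- checks the labels only in part. A background level was set on each array from 1210 probe sets of olfactory and vomeronasal receptors, as their 95th percentile, and it lay between 6.88 and 7.02. Of the list of LT-HSC markers, 18 of 18 measured were above that level on all 6 arrays, among them Kit. That list also holds Cd34 (13.01 to 13.30) and Flt3 (11.59 to 12.20), although the gate was CD34 negative. WT replicate 3 stood farthest out on the first principal component, with a score of 23.3, against -10.6 and 2.63 in the other WT pools and -12.6, 7.97 and -10.7 in Lxn-/- replicates 1, 2 and 3. In limma, 0 of 23410 probe sets passed an adjusted p of 0.05 (0% of those tested), and 914 (3.90%) had an unadjusted p under 0.05. Of these, 570 (2.43%) lay lower in Lxn-/- and 344 (1.47%) higher.

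The signals of 5 of the 6 genes were above the background level on all 6 arrays, and that of Ccr3 was above it on 5. Means of all 6 genes were below WT in Lxn-/-, with a median difference of -0.86 on the log2 scale, beside -0.013 over all 19938 genes. For 2 of the 6, Il5ra and Alox15, all Lxn-/- values lay below all WT values, where 5.38% of all probe sets lay lower in Lxn-/- without overlap and 8.98% did so in either direction. Since these values chose the genes, nothing is read from that count. The spread between pools of the same genotype was as large as the difference for several of the genes, and a few pools carried most of it. In RNA from pooled cells, fewer cells of a type and less RNA per cell cannot be told apart.

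**Figure D1:**
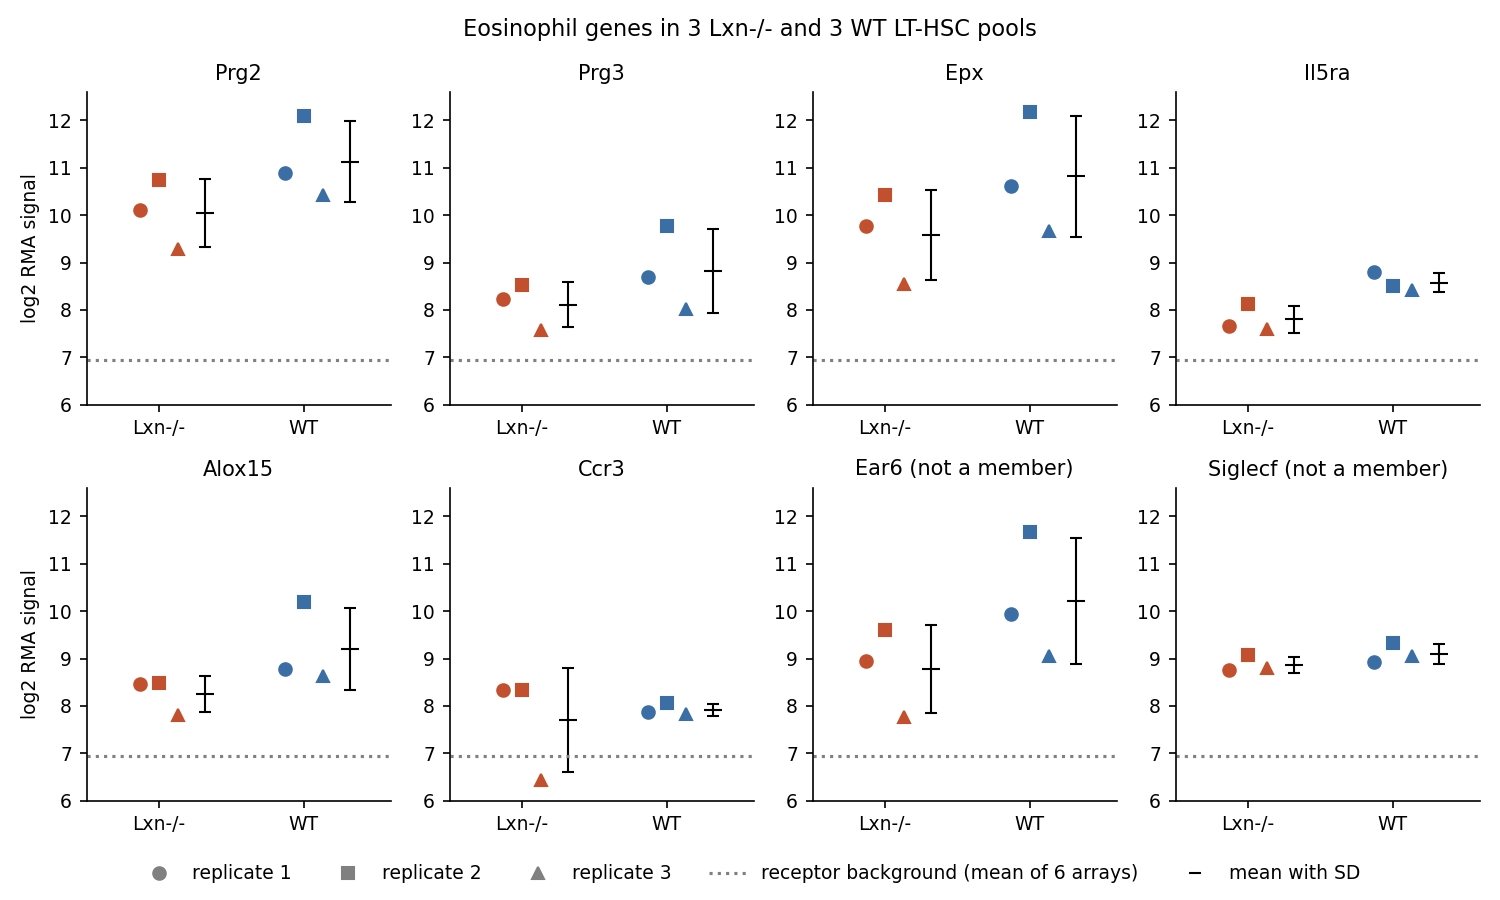
Log2 RMA signal (y axis) of the 6 eosinophil genes, and of Ear6 and Siglecf as further eosinophil genes outside the set, in 3 Lxn-/- pools (left of each panel) and 3 WT pools (right). Symbols mark replicates, bars give the mean with SD, and the dotted line is the receptor background level averaged over the arrays. WT replicate 2 is highest for Prg2, Prg3, Epx, Alox15, Ear6 and Siglecf, and Lxn-/- replicate 3 is lowest for all 6 eosinophil genes and for Ear6.

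The granule proteins come first. Prg2 encodes the precursor of major basic protein, the cationic core protein of the eosinophil granule. Its signal was 10.10, 10.74 and 9.29 in Lxn-/- replicates 1, 2 and 3, against 10.90, 12.08 and 10.42 in WT replicates 1, 2 and 3. The groups overlapped, since Lxn-/- replicate 2 lay above WT replicate 3. The means were 10.04 ± 0.72 in Lxn-/- and 11.13 ± 0.86 in WT (SD, n = 3 each), a difference of -1.09 (SE 0.46), or 2.13-fold.

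Prg3, the neighbouring gene on chromosome 2, encodes a homolog of major basic protein that is also stored in the granule. It had 8.22, 8.52 and 7.58 in the Lxn-/- pools, against 8.69, 9.76 and 8.02 in the WT pools. WT replicate 3 lay below Lxn-/- replicates 1 and 2, so the genotypes overlapped here too. The mean was 8.11 ± 0.48 in Lxn-/- and 8.82 ± 0.88 in WT (SD, n = 3 each), and the difference was -0.72 (SE 0.42).

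Epx encodes eosinophil peroxidase, the granule enzyme that makes hypohalous acids from hydrogen peroxide. Its values were 9.78, 10.42 and 8.54 in Lxn-/-, against 10.63, 12.19 and 9.66 in WT. WT replicate 2 stood 1.56 above the next pool and Lxn-/- replicate 3 stood 1.11 below the next. The Lxn-/- mean of 9.58 ± 0.95 and the WT mean of 10.82 ± 1.28 (SD, n = 3 each) differed by -1.24 (SE 0.66), or 2.37-fold. From the lowest to the highest pool Epx spanned 3.64 log2 units, or 12.5-fold, and only 5 of the 19938 genes, Epx included, had a span that wide.

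Alox15 encodes a lipoxygenase that makes lipid mediators in eosinophils and in resident macrophages. It had 8.45, 8.48 and 7.81 in the Lxn-/- pools, against 8.78, 10.19 and 8.64 in the WT pools. All Lxn-/- values lay below all WT values, but the nearest pools of the genotypes were close and WT replicate 2 stood 1.41 above the rest. Means were 8.25 ± 0.38 in Lxn-/- and 9.20 ± 0.86 in WT (SD, n = 3 each), a difference of -0.95 (SE 0.39).

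The receptors behaved less alike. Il5ra encodes the ligand-binding chain of the interleukin 5 receptor, which eosinophils and their progenitors carry and which in the mouse is also found on B-1 cells and antibody-secreting cells. Its signal was 7.67, 8.13 and 7.60 in Lxn-/-, against 8.80, 8.51 and 8.42 in WT. The genotypes did not overlap, and here WT replicate 1 was the highest pool and not WT replicate 2. The means of 7.80 ± 0.29 in Lxn-/- and 8.57 ± 0.20 in WT (SD, n = 3 each) differed by -0.78 (SE 0.15), a difference wider than the spread within either genotype.

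Ccr3 encodes the eotaxin receptor of eosinophils, which basophils carry as well. It had 8.34, 8.34 and 6.44 in the Lxn-/- pools, against 7.87, 8.06 and 7.82 in the WT pools. Lxn-/- replicates 1 and 2 were the highest of all 6 pools and Lxn-/- replicate 3 was the lowest, 1.38 below the next and under the background level of that array. The means were 7.71 ± 1.10 in Lxn-/- and 7.92 ± 0.13 in WT (SD, n = 3 each). The difference of -0.21 (SE 0.46) was within the spread, and without Lxn-/- replicate 3 it was 0.42.

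The size of the differences hung on single pools. Without WT replicate 2 the difference was -0.61 for Prg2, -0.25 for Prg3, -0.56 for Epx and -0.46 for Alox15, against -1.09, -0.72, -1.24 and -0.95 with all pools. Without WT replicate 3 the same genes differed by -1.45, -1.12, -1.83 and -1.23. Without Lxn-/- replicate 3 they differed by -0.71, -0.45, -0.72 and -0.73. Il5ra was the steadiest of the 6, at -0.67 to -0.94 whichever pool was left out.

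Whether the genes move together over the pools was the question put to this set. Prg2, Prg3, Epx and Alox15 had the same highest pool, WT replicate 2, and the same lowest pool, Lxn-/- replicate 3. Pearson correlations over the 6 arrays among these 4 genes ran from 0.948 to 0.992 in 6 pairs. After removal of the genotype means they ran from 0.924 to 0.992, so the likeness was also present among pools of the same genotype. The order of the 6 pools was identical for Prg3 and Epx.

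Pairs with Il5ra or Ccr3 were looser by Pearson's r, which ran from 0.367 to 0.734 in 9 pairs. After removal of the genotype means it ran from 0.097 to 0.665. The median r over all 15 pairs was 0.669. By the order of the pools (Spearman rho), Il5ra was less far off than Ccr3. Its rho was 0.943 with Alox15, 0.886 with Prg2 and 0.771 with Prg3 and with Epx. Among Prg2, Prg3, Epx and Alox15 themselves rho ran from 0.829 to 1.0. For Ccr3 it ran from 0.0857 with Il5ra to 0.543 with Prg3 and with Epx. When each gene was set against the mean standardised profile of the other 5, r was 0.987 for Prg2, 0.976 for Epx, 0.936 for Prg3 and 0.904 for Alox15. Of all genes compared with the same profiles, 0.0251%, 0.0652%, 0.221% and 0.477% were as alike or more so. For Il5ra r was 0.652 and for Ccr3 0.561, and 6.22% and 9.33% of genes did as well. All these correlations share the same 6 arrays and their normalization and are given as descriptions.

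The likeness of the 4 genes rested in part on the 2 extreme pools. Without WT replicate 2 their pairwise correlations ran from 0.827 to 0.989 and without Lxn-/- replicate 3 from 0.929 to 0.997. Without both pools they ran from 0.358 to 0.983, with a median of 0.712, over the 4 arrays that were left. This last setting was chosen after the values were seen.

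**Figure D2:**
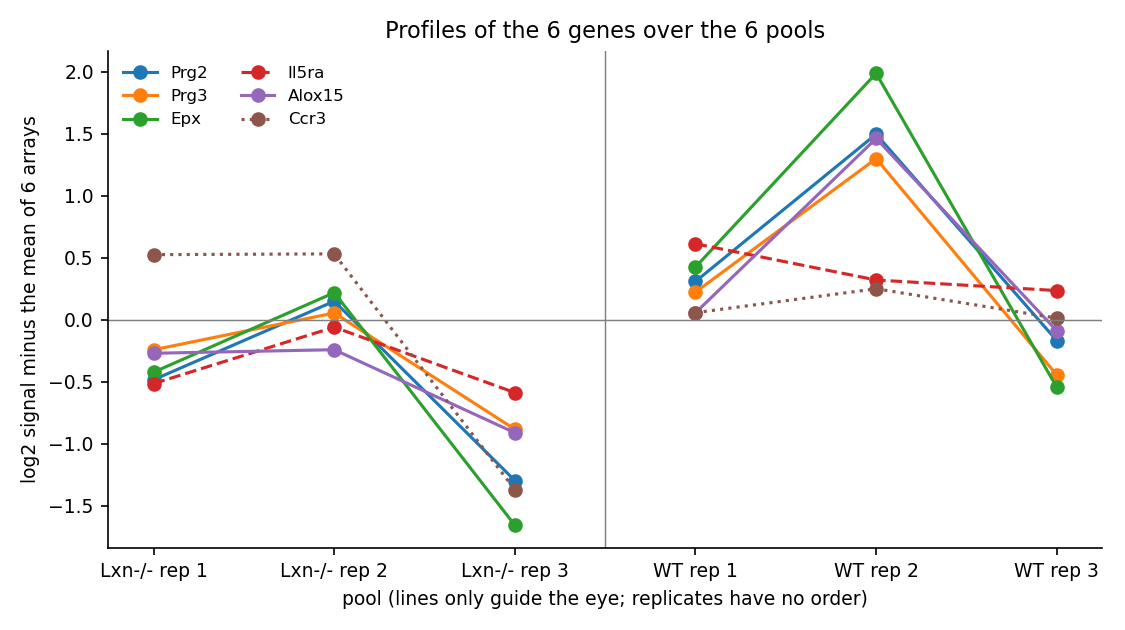
Log2 signal of each of the 6 genes minus its own mean over 6 arrays (y axis), by pool, with Lxn-/- pools on the left and WT pools on the right. Prg2, Prg3, Epx and Alox15 (solid lines) peak in WT replicate 2, at 1.30 to 1.99 above their means, while Il5ra (dashed) and Ccr3 (dotted) do not.

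Likeness outside the set was ranked among the 1705 genes with an SD of at least 0.2 over the 6 arrays and no predicted or clone name. The first of them was Ear6, a member of the eosinophil-associated ribonucleases, cationic granule enzymes that multiplied into a large family in rodents. Ear6 had 8.95, 9.60 and 7.76 in the Lxn-/- pools, against 9.94, 11.67 and 9.04 in the WT pools. It shared its highest and its lowest pool with Epx and correlated with the mean profile of the 6 genes at r = 0.986. Its span was 3.90 log2 units, and 3 of the 19938 genes, itself included, had a span that wide. The genotypes overlapped, and the difference of -1.45 (SE 0.67) missed the threshold (limma adjusted p = 0.993). It was -0.72 without WT replicate 2. Genes of this family are near copies of each other, so signal from its relatives may enter this probe set.

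The other measured ribonucleases, Ear14, Rnase2a and Rnase2b, were below the background level on all 6 arrays. Of the 13 ribonuclease genes listed, 4 had a probe set of their own symbol. The 10 most alike of those 1705 genes had r from 0.878 to 0.986. Of all genes outside the set, 0.717% reached the lowest of these, counting also those of smaller SD or with a predicted or clone name. After Ear6 came Alpk2 (0.919), the sodium channel subunit gene Scnn1a (0.915), Cst7 (0.908), which encodes a cystatin of leukocytes, and the immunoglobulin kappa variable gene Igkv19-93 (0.900). Tada2b, Hsd11b1, Vmn1r178, Rnf43 and Ap3s1 completed the list. The 9 after Ear6 spanned 0.61 to 0.95 log2 units each, against 3.90 for Ear6. Vmn1r178 was below the background level on all arrays and Alpk2 was above it on 2.

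Siglecf, the sialic acid binding receptor used to define mouse eosinophils, moved over a narrower span than Epx. Its signal was 8.76, 9.06 and 8.79 in the Lxn-/- pools, against 8.92, 9.33 and 9.06 in the WT pools. WT replicate 2 was again the highest pool. The whole span was 0.58, against 3.64 for Epx, and 7.64% of all genes spanned at least as much as Siglecf. The difference was -0.23 (SE 0.13, limma adjusted p = 0.993), and the genotypes overlapped. Of the eosinophil markers listed for checking the label, 8 of 10 were measured. By Pearson's r the granule genes, Alox15 and Ear6 formed the group that moved together, with Il5ra and Ccr3 less closely tied to it. By Spearman rho Il5ra was nearer to Prg2, Prg3, Epx and Alox15 (0.771 to 0.943) than Ccr3 was (0.143 to 0.543). No correlation of Siglecf with that group is given, so Siglecf is placed neither inside nor outside it. Its highest pool was that of the group, and its lowest were Lxn-/- replicates 1 and 3, at 8.76 and 8.79.

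The promoters are shown because genes that move together can be compared for shared letters next to their start sites. Sequences are from RefSeq, build GRCm38.p6, cover 250 bases before to 50 bases after the annotated start, run 5′ to 3′ on the gene's strand, and were found for 4 of the 6 genes. They lie at chr2:84987965-84988264 (plus strand) for Prg3, chr11:87875487-87875786 (minus strand) for Epx, chr6:106748988-106749287 (minus strand) for Il5ra and chr9:124021721-124022020 (plus strand) for Ccr3. Capitals mark the GATA motif (AGATAA, with its forms AGATAG, also TGATAA and lastly TGATAG, on either strand) and the TATA motif (TATAA, on either strand), which did not overlap each other.
Prg3: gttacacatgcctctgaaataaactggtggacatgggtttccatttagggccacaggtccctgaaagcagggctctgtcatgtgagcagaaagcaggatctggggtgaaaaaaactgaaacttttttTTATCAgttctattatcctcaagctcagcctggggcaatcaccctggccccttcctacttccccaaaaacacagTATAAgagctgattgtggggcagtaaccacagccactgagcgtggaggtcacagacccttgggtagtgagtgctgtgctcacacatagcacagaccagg
Epx: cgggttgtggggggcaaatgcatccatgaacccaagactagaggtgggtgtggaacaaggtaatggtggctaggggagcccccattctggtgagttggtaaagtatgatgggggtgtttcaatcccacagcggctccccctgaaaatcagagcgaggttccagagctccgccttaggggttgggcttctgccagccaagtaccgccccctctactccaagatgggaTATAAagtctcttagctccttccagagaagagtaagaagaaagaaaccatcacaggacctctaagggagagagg
Il5ra: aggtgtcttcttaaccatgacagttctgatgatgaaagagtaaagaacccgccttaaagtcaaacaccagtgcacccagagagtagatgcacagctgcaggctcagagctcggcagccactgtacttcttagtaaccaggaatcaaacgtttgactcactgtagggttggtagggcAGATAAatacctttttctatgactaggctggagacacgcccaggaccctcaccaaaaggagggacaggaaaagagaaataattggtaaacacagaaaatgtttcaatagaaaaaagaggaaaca
Ccr3: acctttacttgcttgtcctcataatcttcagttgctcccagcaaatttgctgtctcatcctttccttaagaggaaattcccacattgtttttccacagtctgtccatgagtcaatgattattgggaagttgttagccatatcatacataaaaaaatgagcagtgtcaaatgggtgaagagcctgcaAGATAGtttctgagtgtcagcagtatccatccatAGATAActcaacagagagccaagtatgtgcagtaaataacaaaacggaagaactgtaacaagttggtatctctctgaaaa

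Prg3 and Epx both held a TATA motif upstream of the start, at -49 to -45 in Prg3 and at -24 to -20 in Epx. Il5ra and Ccr3 held none in this window. No window was found for Prg2 and Alox15, which moved with Prg3 and Epx, so a link between the motif and the movement over the pools was not tested. The GATA motif was present once in Prg3 at -123 to -118, once in Il5ra at -74 to -69 and in 2 places in Ccr3, at -64 to -59 and -30 to -25, and was not among these letters in Epx. Of 32851 mouse promoter windows of this length, 29.8% held a GATA motif, 7.77% held 2 or more, and 24.9% held a TATA motif. A C/EBP motif (TTNNGNAA, on either strand) occurred once in Prg3 and once in Ccr3 and in 40.7% of all windows. These matches describe letters and say nothing of binding.

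Genes beside the 6 on their chromosomes had small differences. Of the 5 protein-coding neighbours on each side of each gene, 53 entries were measured, in which Prg2 and Prg3 appear as neighbours of each other. The rest had differences from -0.24 to 0.17. On chromosome 11 the peroxidase genes Mpo and Lpo lie near Epx. Mpo, the peroxidase of neutrophils and their progenitors, had 13.47, 13.59 and 13.34 in the Lxn-/- pools, against 13.44, 13.67 and 13.34 in the WT pools, a difference of -0.022 (SE 0.10, limma adjusted p = 0.995). Its order over the pools was close to that of Epx (r = 0.870 over 6 arrays), over a span of 0.34 where Epx spanned 3.64. Lpo differed by 0.025 and Pxdn, a peroxidase of the basement membrane, by 0.072. Ccr1 and Ccr2, chemokine receptor genes beside Ccr3, differed by 0.087 and 0.060.

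Other genes of eosinophil biology, from lists drawn up by function, lay on both sides of 0. Of 82 such genes, 69 were measured, with differences from -1.45 for Ear6 to 0.92 for Ptgs2, the highest difference of all 19938 genes. Their median difference was -0.013, the same as over all genes, with 36 below and 33 above 0, and 0 passed in limma. At an unadjusted p under 0.05 there were 3 lower and 2 higher in Lxn-/-, where 2.43% of all probe sets were lower and 1.47% higher.

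The signalling chain of the interleukin 5 receptor had small differences beside the -0.78 of Il5ra. Its 14 measured genes had differences from -0.12 to 0.10 with a median of -0.019, and 0 had an unadjusted p under 0.05 in limma, where 3.90% of all probe sets did. Csf2rb, the beta chain that Il5ra shares with the receptors for interleukin 3 and GM-CSF, had 10.93, 10.65 and 10.73 in Lxn-/-, against 10.99, 10.85 and 10.54 in WT, a difference of -0.023 (SE 0.13). Its paralog Csf2rb2, which serves interleukin 3 in the mouse, differed by 0.028. Cish, a feedback inhibitor induced by STAT5, differed by -0.12 (SE 0.095) and Spred1 by 0.056 (SE 0.067). Il5 itself was below the background level on all 6 arrays.

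Among 16 measured surface proteins the median difference was -0.0082. Cysltr2, a receptor for cysteinyl leukotrienes, had 9.10, 8.95 and 9.20 in Lxn-/-, against 8.70, 8.85 and 8.75 in WT, without overlap, and differed by 0.32 (SE 0.084, limma adjusted p = 0.993). The inhibitory receptor gene Pirb differed by 0.32 (SE 0.19) with overlap. Both lay on the other side of 0 from the 6 eosinophil genes.

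Of 15 lineage factors, 9 lay above and 6 below 0, with a median of 0.039. Xbp1, a secretory factor that eosinophils and plasma cells both need, differed by -0.39 (SE 0.10), Id1 by 0.28 (SE 0.084) and Cebpd by 0.19 (SE 0.095), each with a limma adjusted p of 0.993. The values of Cebpd were above the background level on 1 array. Gata1 and Cebpe, the factors most closely tied to eosinophil development, are named here after their values were seen. Gata1 had 9.32, 10.12 and 9.06 in the Lxn-/- pools, against 9.35, 9.78 and 10.59 in the WT pools, so its highest pool was WT replicate 3 and not WT replicate 2. Cebpe, which governs granule genes, had 9.16, 8.92 and 8.86 in Lxn-/-, against 9.30, 9.54 and 8.21 in WT. The highest pool of Cebpe was WT replicate 2, as for Prg2, Prg3, Epx and Alox15, but its lowest was WT replicate 3.

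The 5 ligands of Ccr3 had differences from -0.14 to 0.084. Ccl24 and Ccl8 were below the background level on all arrays. Ccl11, the ligand eotaxin, differed by 0.044 and Ccl7 by -0.071. Ccl5, a chemokine of T and NK cells, had 9.83, 10.69 and 9.53 in Lxn-/-, against 9.93, 9.71 and 10.16 in WT, a difference of 0.084 (SE 0.27).

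Of 12 measured lipoxygenase and eicosanoid genes, 6 lay on each side of 0, with a median of -0.007. Alox12e, the gene next to Alox15, had a difference of -0.21 (SE 0.091) and Alox8 of -0.19 (SE 0.078), and their signals stayed near the background level, at 6.67 to 7.08 for Alox12e and 7.18 to 7.49 for Alox8. Ptgs2, the inducible cyclooxygenase, had 10.71, 9.55 and 11.17 in the Lxn-/- pools, against 9.96, 9.92 and 8.79 in the WT pools, a difference of 0.92 (SE 0.44). All 3 had a limma adjusted p of 0.993.

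**Figure D3:**
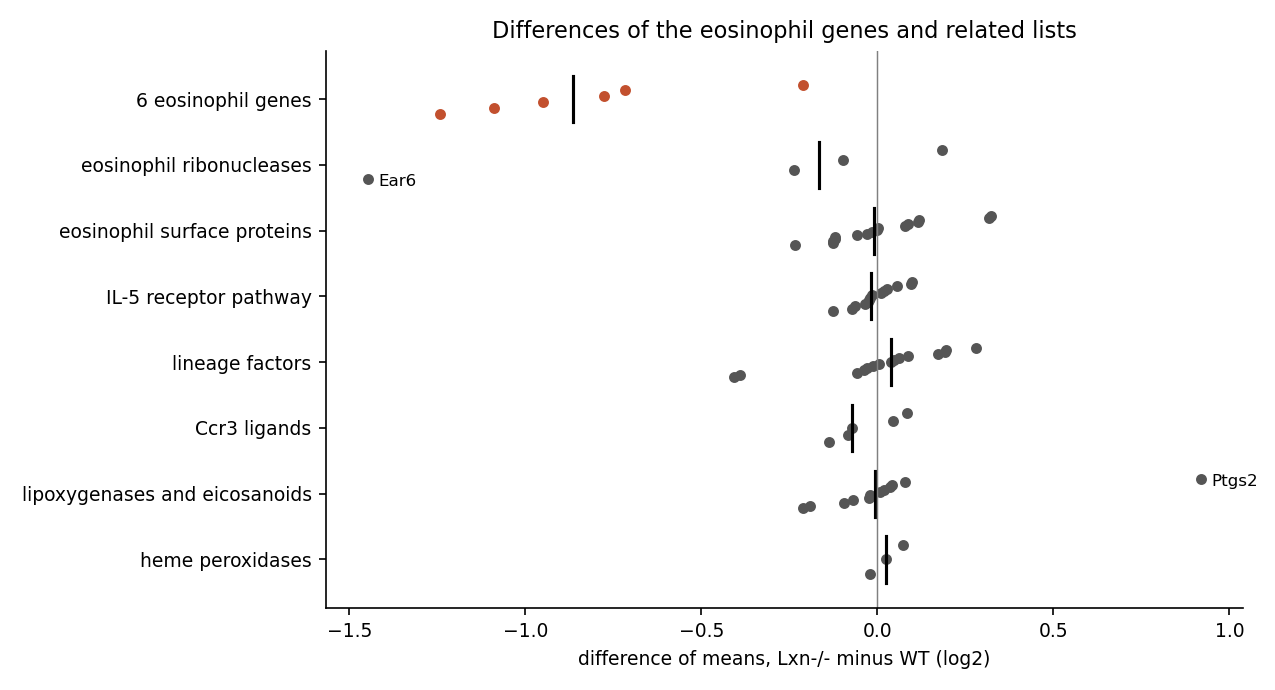
Difference of genotype means on the log2 scale, Lxn-/- minus WT (x axis), for the 6 eosinophil genes (top row) and 7 lists of related genes, 1 point per gene with a bar at each median. The 6 genes have a median of -0.86, and list medians lie between -0.17 and 0.039, with Ear6 at -1.45 and Ptgs2 at 0.92 as the points farthest out among the related genes.

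Markers of other cells were read beside the eosinophil genes. The mean standardised profile of the 6 genes was compared over the 6 arrays with that of 8 cell marker lists and of the LT-HSC list, 9 relations in all. Because the 6 genes were chosen on these arrays, the correlations are a description and carry no test. The widest by Pearson's r were with mast cell and basophil markers (r = 0.695, Spearman rho = 0.0286) and with LT-HSC markers (r = -0.599, rho = -0.429). The LT-HSC list includes Cd34 and Flt3. Without Lxn-/- replicate 3 and WT replicate 2, the arrays farthest from the median of the eosinophil profile, r was -0.918 with mast cell and basophil markers and -0.568 with LT-HSC markers, so the first relation rests on those arrays.

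Neutrophil markers, of the other abundant granulocyte, split over the pools. Of 21 measured, 16 were highest in Lxn-/- replicate 3, the pool in which all 6 eosinophil genes were lowest, and 4 were highest in WT replicate 2, the peak of the eosinophil granule genes. S100a8, an abundant neutrophil alarmin, had 11.08, 9.94 and 11.82 in the Lxn-/- pools, against 11.50, 10.67 and 8.42 in the WT pools. Elane, the elastase of the early neutrophil granule, ran from 12.59 to 13.24 in the Lxn-/- pools and from 12.76 to 13.31 in the WT pools, and it shared its highest and lowest pools with Epx. Mpo, described above, and the early granule protease genes Prtn3 and Ctsg also peaked in WT replicate 2. Elane, Prtn3 and Ctsg are named after their values were seen. Over the whole list, 18 genes had a difference above 0, where 8765 of all 19938 genes did, and 18 were above the background level on all arrays. The r of the list with the eosinophil profile was -0.195 (rho = -0.314) and 0.364 without the 2 farthest arrays. The mean log2 signal of the list ran from 9.27 to 10.91 in the Lxn-/- pools and from 8.87 to 10.51 in the WT pools.

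Some basophil genes shared the lowest pool of Ccr3. They are named after their values were seen. Mcpt8, a basophil protease, had 10.91, 11.08 and 9.44 in the Lxn-/- pools, against 10.87, 10.53 and 10.84 in the WT pools. The basophil protease gene Prss34 had 10.91, 10.90 and 9.51 in Lxn-/-, against 10.92, 10.45 and 11.17 in WT. Fcer1a, which encodes a chain of the IgE receptor, had 7.93, 7.84 and 6.56 in Lxn-/-, against 7.32, 7.52 and 7.40 in WT. As with Ccr3, Lxn-/- replicate 3 was the lowest pool for all 3 genes, and it was the lowest for 8 of the 16 mast cell and basophil markers. This was not particular to that list. The same pool was lowest for 8 of 12 erythroid, 8 of 16 T and NK cell, 7 of 16 B cell and 6 of 15 plasma cell markers. Among monocyte, macrophage and dendritic cell markers it was lowest for 6 of 19. It was lowest for fewer neutrophil (2 of 21) and megakaryocyte (1 of 12) markers. For LT-HSC markers it was lowest for 0 of 18 and highest for 10 of 18. The highest pool varied within the list. Prss34, Cpa3 and Ms4a2 were highest in WT replicate 3, and Hdc, the histamine-forming enzyme, was highest in WT replicate 2 at 10.44 and lowest in WT replicate 3 at 9.61. Of the 16 mast cell and basophil markers, 8 were above the background level on all arrays and 6 on none, the mast cell genes Cma1, Mcpt4, Tpsab1, Mrgprb1 and Mrgprb2 and the basophil receptor gene Cd200r3. The mean log2 signal of the list ran from 7.38 to 7.81 in the Lxn-/- pools and from 7.73 to 7.80 in the WT pools.

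Over the 6 arrays Ccr3 correlated with the mast cell and basophil profile at r = 0.961 and rho = 0.429, the widest r of Ccr3 with the 9 lists, given without a test as above. Without the arrays farthest from the median of Ccr3, Lxn-/- replicates 2 and 3, r was 0.852. Lxn-/- replicate 3 was the lowest pool on both measures. The mean standardised value of the list was -0.71 there and 0.066 to 0.27 in the other pools. The r over 6 arrays therefore rests in large part on that pool, and r with only that pool left out was not computed. The part of basophils in the Ccr3 signal was not tested.

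Il5ra and the plasma cell markers each separated the genotypes. All 15 plasma cell markers had a difference below 0, where 11173 of all 19938 genes did. The values of 11 of them did not overlap, where 5.38% of all probe sets lay lower in Lxn-/- without overlap. The list was chosen with earlier results of these data known, so these counts are a description. The mean log2 signal of the list was 10.53, 10.53 and 10.46 in the Lxn-/- pools, against 11.16, 10.77 and 10.84 in the WT pools, with WT replicate 1 highest for all 15 markers, as for Il5ra. Mzb1, a chaperone of antibody-secreting cells, had 9.06, 9.17 and 9.18 in Lxn-/-, against 10.19, 9.71 and 9.91 in WT (difference -0.80, SE 0.12, limma adjusted p = 0.993). No pooled correlation is given, because the genotypes form separate clusters on both measures. After removal of the genotype means r was 0.577, over too few pools to say whether they moved together within a genotype, and the part of antibody-secreting cells in the Il5ra signal was not tested. All 15 markers were above the background level on all arrays, and Xbp1 is among them as well as among the lineage factors.

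**Figure D4:**
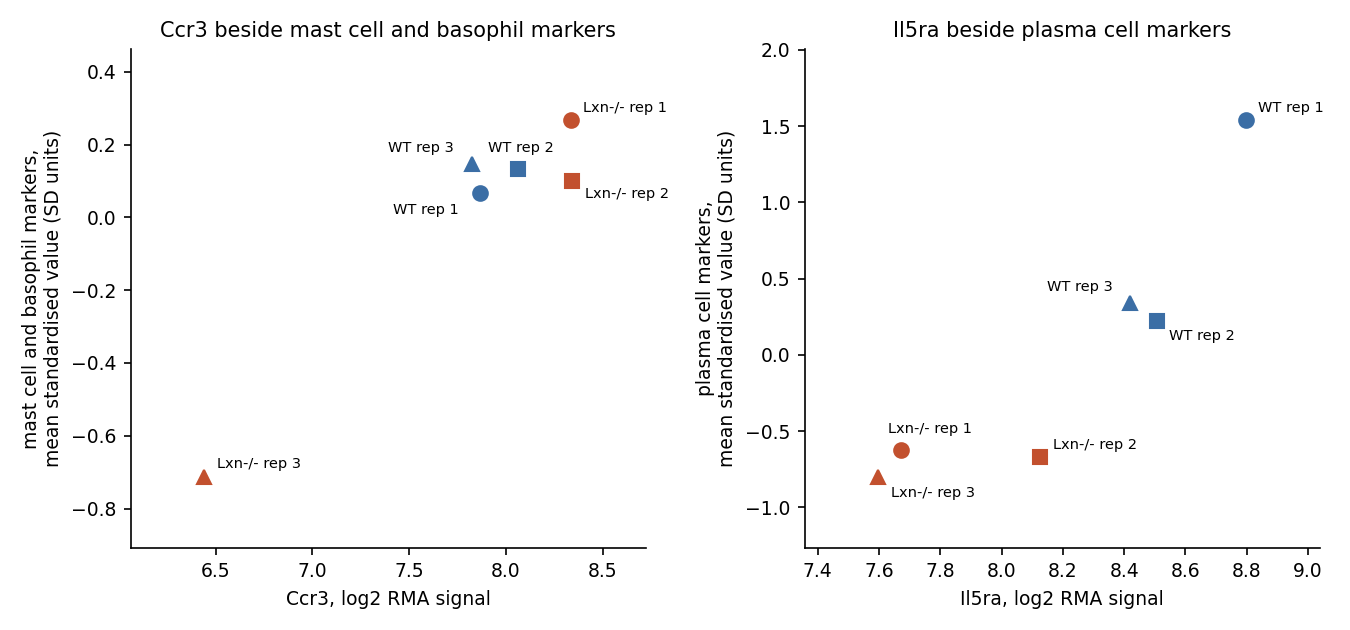
Left, log2 RMA signal of Ccr3 (x axis) against the mean standardised value of 16 mast cell and basophil markers (y axis, SD units). Right, Il5ra against 15 plasma cell markers. Each point is 1 pool, labelled by genotype and replicate, with Lxn-/- in red and WT in blue. Lxn-/- replicate 3 stands alone at the low end of the left panel, and the genotypes separate on both axes of the right panel.

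For the remaining lists, correlations with the eosinophil profile were 0.168 for monocytes, macrophages and dendritic cells, 0.175 for B cells, 0.524 for plasma cells, 0.442 for erythroid cells, -0.0812 for megakaryocytes and 0.224 for T and NK cells. Spearman rho for these 6 lists ran from -0.200 to 0.600, with B cells and plasma cells at the upper end. Without the 2 farthest arrays r was -0.0780, 0.214, 0.693, -0.0898, -0.158 and 0.198, in the same order of lists. Erythroid markers were below 0 for 12 of 12 members, where 11173 of all 19938 genes were, with a median of -0.28. WT replicate 3, the lowest WT pool for all 6 eosinophil genes, was the highest pool for 11 of the 12 erythroid markers. Lxn-/- replicate 3 was the lowest pool for 8 of the 12, as it was for all 6 eosinophil genes.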

How the data were processed

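RNA of 6 pools of sorted LT-HSCs was measured, 3 Lxn-/- and 3 WT, with 100 ng of total RNA labelled per array according to the labels. The deposited table holds log2 expression values for 35557 probe sets, which the authors normalized by RMA, per the series' design text, and the submitters' processing notes name Partek 6.0. The sources used here do not give the background step or the summary level. Symbols came from GEO's platform annotation, which paired 21789 probe sets with 1 symbol, 1621 with several and left 12147 unnamed here. The 23410 named probe sets were tested with limma 3.58.1 in R 4.3.3 (lmFit and eBayes, two-sided, Benjamini-Hochberg over all of them), as in the design text, and SE is limma's moderated standard error. Each gene was represented by its brightest probe set. The fit was checked on simulated data. Correlations used scipy 1.17.1 and numpy 2.4.6, and those that involve the 6 genes are given without a test. Precision is limited by there being 3 arrays per genotype.

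The 6 genes and the lists were chosen with earlier results of these data known. Named by rule were the 6 genes, Lxn, the genes of lowest unadjusted p of each list (3 at most) where none passed, the ribonuclease, Ccr3 ligand and peroxidase lists, the chromosomal neighbours, and the 10 genes most alike with an SD of at least 0.2 over the arrays. Genes with a predicted or clone name were left out of the ranking of genes most alike. Of the genes named by rule, the text gives those closest to the 6 genes. Replicate numbers are taken from the titles. Alternatives were another scaling, array weights, other sets of probe sets, single pools left out, a replicate block and an intensity trend.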

Additional observations from a re-analysis of the deposited data

How the results depend on the processing

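The count of 0 probe sets at an adjusted p under 0.05 in limma, and of 0 among the related eosinophil genes, held under quantile normalization, a common median, array weights, an intensity trend, all 35557 probe sets, the omission of dim probe sets, the replicate block and the omission of each pool, where 524 to 1807 probe sets had an unadjusted p under 0.05. The median difference of the 6 genes of -0.86 ran from -1.18 to -0.51 when single pools were left out and was -1.27 with array weights. Ccr3 reversed to 0.42 without Lxn-/- replicate 3, and ran down to -0.53 without Lxn-/- replicate 2. The median pairwise correlation of 0.669 ran from 0.448 to 0.820 with single pools left out, and was 0.425 without WT replicate 2 and Lxn-/- replicate 3. Correlations of the eosinophil profile changed sign without the 2 farthest arrays for mast cells and basophils (-0.918), neutrophils (0.364), monocytes, macrophages and dendritic cells (-0.0780) and erythroid cells (-0.0898), and within genotypes for B cells (-0.563), plasma cells (-0.0779) and megakaryocytes (0.190). The cause was not tested. A pairing of the pools by replicate number was neither shown nor excluded. Correlations of deviations between pools of the same number were 0.372, -0.0719 and -0.0807, and 2 of 6 arrays were closest to their own number. With the replicate block 1173 probe sets against 914 had an unadjusted p under 0.05 in limma. The median difference then stayed at -0.86 and the median pairwise correlation was 0.780.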
